A study of Mus musculus with 20 samples.

Results

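The heat shock chaperones are described here through 10 genes out of the 29339 in the table of heart transcripts: Hspa1a, Hspa1b, Dnajb1, Hsph1, Hspa8, Hsp90aa1, Hspb1, Hspd1, Hspe1 and Bag3. They were chosen by gene symbol as chaperones that heat shock factor HSF1 drives or that fold proteins in mitochondria, and each symbol matched 1 row. All 10 passed the filter on low counts in every comparison. RNA came from hearts of C57BL/6 mice aged 8 weeks, either wild type (WT) or carrying the TECRL-/- knockout (KO), with no treatment named. There were 5 libraries labelled male WT, 5 male KO, 3 female WT and 7 female KO. The library names form 2 series: S1 to S12 hold all 3 female WT libraries and 3 libraries of each other group, while WT1, WT2 and TKO1 to TKO6 hold 2 male WT, 2 male KO and 4 female KO libraries.

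Chaperones bind unfolded stretches of other proteins and help them fold or keep them from clumping. When a cell is heated or otherwise stressed, HSF1 moves onto DNA at heat shock elements, which are inverted repeats of the letters GAA and TTC, and switches on the inducible HSP70 genes Hspa1a and Hspa1b from a low resting level. HSP70 proteins work in cycles with J-domain partners such as Dnajb1, with nucleotide exchange factors such as Hsph1 and Bag3, and with HSP90. In the heart the small heat shock proteins and Bag3 guard the contractile filaments, and the Hspd1 and Hspe1 proteins form the folding chamber of the mitochondrial matrix.

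The libraries held between 12540002 and 20038593 counts each, and the 44 pairs of libraries within a group all differed by more than sampling noise, with a chi-square per degree of freedom of 11.4 to 156. Tecrl, the targeted gene, did not separate the genotypes: its level was 51.5 to 124.5 CPM (counts scaled to library size, with TMM factors) in 8 WT and 60.0 to 100.2 CPM in 12 KO libraries. In 6 of 20 libraries (S4 to S9) the counts of Xist and of the Y-linked genes Ddx3y, Eif2s3y, Uty and Kdm5d went against the labelled sex. In the S series all 6 WT libraries carried Xist and all 6 KO libraries carried Y-linked transcripts, so genotype and sex-linked expression cannot be told apart there. Groups below are named by their labels. Since Tecrl did not separate the genotypes, the counts cannot show whether the genotype labels of S4 to S9 are right. The defining ventricular genes were high throughout, with a summed level of 38263 to 58428 CPM over 8 genes. Atrial genes were not: the sum of Myl4, Myl7, Sln, Nppa, Bmp10, Mybphl and Dkk3 ran from 11.5 to 7768 CPM in male WT, 16.03 to 7666 CPM in male KO, 24.9 to 45.9 CPM in female WT and 14.6 to 375.9 CPM in female KO, and none of the 7 genes was at 0 throughout a group. In bulk RNA, fewer cells of a type and less RNA per cell cannot be told apart.

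The promoter sequences are shown for 4 of the 5 members whose levels moved most between libraries (Hsp90aa1, the other, has no window in the RefSeq table), for the shared promoter of the mitochondrial pair and, as a contrast, for Dnajb1, which hardly varied. Each window is the RefSeq sequence (GRCm38.p6) from 250 bases before to 50 after the annotated start, printed 5′ to 3′ on the strand of the gene. Capitals mark pairs of heat shock element repeats, GAANNTTC or TTCNNGAA. Both strands were read, although each pair reads the same on either strand, and a triple is a pair with a further repeat at the same spacing, so that its pairs overlap.
Hspa1a, chr17:34972107-34972406, minus strand: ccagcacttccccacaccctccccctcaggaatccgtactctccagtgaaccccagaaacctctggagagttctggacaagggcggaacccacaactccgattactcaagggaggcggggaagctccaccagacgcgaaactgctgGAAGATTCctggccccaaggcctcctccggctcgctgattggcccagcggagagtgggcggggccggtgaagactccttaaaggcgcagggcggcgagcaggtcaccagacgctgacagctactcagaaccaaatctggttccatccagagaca
Hspa1b, chr17:34959189-34959488, minus strand: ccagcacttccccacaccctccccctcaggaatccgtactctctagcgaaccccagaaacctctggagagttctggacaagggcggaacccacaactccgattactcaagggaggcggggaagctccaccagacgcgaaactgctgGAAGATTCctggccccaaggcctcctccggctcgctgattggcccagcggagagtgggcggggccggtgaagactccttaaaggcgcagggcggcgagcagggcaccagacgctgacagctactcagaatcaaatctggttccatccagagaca
Hspb1, chr5:135887669-135887968, plus strand: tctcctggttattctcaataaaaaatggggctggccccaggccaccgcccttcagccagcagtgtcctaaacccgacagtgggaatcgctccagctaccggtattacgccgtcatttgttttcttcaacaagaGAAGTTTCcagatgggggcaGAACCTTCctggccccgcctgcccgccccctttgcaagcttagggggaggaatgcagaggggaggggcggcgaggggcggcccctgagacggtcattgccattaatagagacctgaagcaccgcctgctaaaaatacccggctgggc
Hsph1, chr5:149636287-149636586, minus strand: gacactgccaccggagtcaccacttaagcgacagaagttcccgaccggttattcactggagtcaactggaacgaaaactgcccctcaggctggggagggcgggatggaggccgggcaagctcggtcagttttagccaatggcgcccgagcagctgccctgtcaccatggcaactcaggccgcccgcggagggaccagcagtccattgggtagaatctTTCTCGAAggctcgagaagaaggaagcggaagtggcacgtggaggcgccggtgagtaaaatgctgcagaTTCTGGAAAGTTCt
Hspe1, chr1:55087898-55088197, plus strand: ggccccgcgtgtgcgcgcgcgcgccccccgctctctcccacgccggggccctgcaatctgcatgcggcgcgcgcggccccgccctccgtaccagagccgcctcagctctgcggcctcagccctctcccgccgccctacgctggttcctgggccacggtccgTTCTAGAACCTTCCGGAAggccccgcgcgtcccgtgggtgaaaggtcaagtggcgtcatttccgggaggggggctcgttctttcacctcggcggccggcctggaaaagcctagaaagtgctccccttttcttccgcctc
Dnajb1, chr8:83607925-83608224, plus strand: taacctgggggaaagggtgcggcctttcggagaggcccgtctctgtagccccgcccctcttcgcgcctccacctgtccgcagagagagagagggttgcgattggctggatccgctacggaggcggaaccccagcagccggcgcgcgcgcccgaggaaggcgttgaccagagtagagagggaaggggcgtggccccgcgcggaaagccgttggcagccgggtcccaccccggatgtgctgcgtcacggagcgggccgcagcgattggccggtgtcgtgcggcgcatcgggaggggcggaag

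The windows of Hspa1a and Hspa1b differ at 4 of 300 bases, none of them in capitals, and both hold 1 pair that begins 104 bases before the start (position -104, with the start at 0). Hspb1 holds 2 pairs, at -117 and -97. Hsph1 holds a pair at -33 and a triple made of pairs at 36 and 41. The 18 capital bases of the Hspe1 window, with pairs at -89, -84 and -79, are read on the opposite strand by 1 of the Hspd1 windows, since these genes lie head to head. The 8 members with a window in the RefSeq table had 11 windows, of which 8 held a pair and 4 a triple. The windows of Hsph1 overlap each other, as do those of Hspd1 and Hspe1 that hold a triple. Among 32851 promoter windows of the same length, 15.1% held a pair and 0.603% a triple. A match is a description of the letters and no match in Dnajb1 says only that these letters are not in its windows. Hspa8 and Hsp90aa1 were not matched.

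On GRCm38, Hspa1a (ENSMUSG00000091971, chr17:34969190-34972156, minus strand) and Hspa1b (ENSMUSG00000090877, chr17:34956436-34959238, minus strand) are neighbouring genes of 1 exon each. Of all 150-base stretches of Hspa1a, 38.1% also occur in Hspa1b, so the counts of each are uncertain and the pair is best read together. Hspa1a also shares 564 exonic bases with Gm20481 on the opposite strand. Hspd1 (chr1:55077835-55088243, minus strand) and Hspe1 (chr1:55088132-55091307, plus strand) share 112 exonic bases, and Hspa8 (chr9:40800984-40810087, plus strand) contains 3 small nucleolar RNAs. Whether the counting used strand is not given in the sources used here. The other members, Dnajb1 (chr8:83608193-83612653, plus strand), Hsph1 (chr5:149614287-149636376, minus strand), Hsp90aa1 (chr12:110690605-110702728, minus strand), Hspb1 (chr5:135887919-135889563, plus strand) and Bag3 (chr7:128523616-128546981, plus strand), overlap no other annotated exon.

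Per unit of transcript length, the small heat shock protein Hspb1 was the most abundant member, with a median of 326 FPKM over 20 libraries (range 230 to 1630). The constitutive HSP70 gene Hspa8 followed with a median of 271 FPKM (229.5 to 607). Then came the mitochondrial chaperonin Hspd1 at 131 FPKM (62.0 to 149.8), Bag3 at 111 FPKM (76.0 to 136.5) and the co-chaperonin Hspe1 at 94.1 FPKM (78.9 to 174). The stress-inducible HSP90 gene Hsp90aa1 had a median of 28.1 FPKM (19.1 to 151.7), the J-domain gene Dnajb1 7.81 FPKM (5.55 to 9.87) and the HSP110 gene Hsph1 4.33 FPKM (2.26 to 12.6). Inducible HSP70 was lowest, with medians of 1.08 FPKM for Hspa1b (0.377 to 81.9) and 1.03 FPKM for Hspa1a (0.277 to 55.5). The ranges of neighbours in this order overlapped, except that Hspd1 stayed below every value of Hspa8 and Dnajb1 below every value of Hsp90aa1. Through their highest libraries Hsp90aa1, Hspa1a and Hspa1b also reached the ranges of members far above them.

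The members varied between libraries to very different degrees. The SD of log2(CPM + 1) over 20 libraries was 1.86 for Hspa1b and 1.72 for Hspa1a, beside a median of 0.288 over 15187 genes, and only 0.105% and 0.151% of genes varied more. Hsp90aa1 (SD 0.692) and Hspb1 (SD 0.641) were exceeded by 3.37% and 4.32% of genes. At the other end Dnajb1 had an SD of 0.184, with 86.3% of genes more variable. Hspa8 had an SD of 0.334, which dropped to 0.119 without libraries S9 and S11, a spread that 98.4% of genes exceeded.

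**Figure D1:**
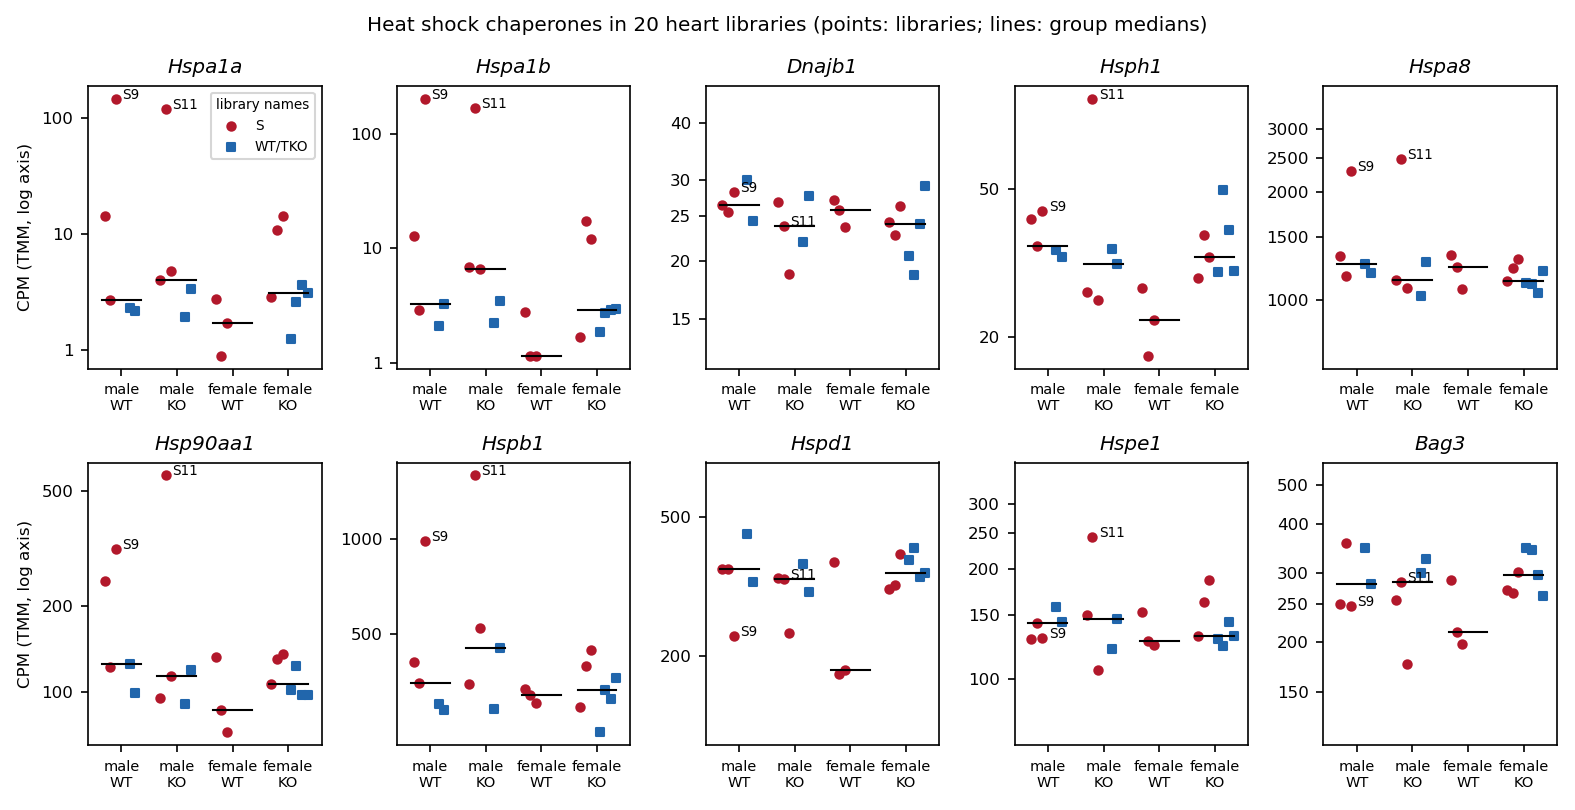
Level of each member (CPM, log axis) in 20 heart libraries by labelled group; circles are S libraries, squares WT/TKO libraries and lines group medians. Hspa1a and Hspa1b reach 120 to 205 CPM in S9 and S11 and at most 17.5 CPM in the other libraries, while Dnajb1 stays between 18.7 and 30.0 CPM.

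Inducible HSP70 stood out in 1 male WT and 1 male KO library. In the male WT group Hspa1a measured 2.32 CPM in WT1, 2.18 CPM in WT2, 14.3 CPM in S7, 2.72 CPM in S8 and 147 CPM in S9. Hspa1b in the same libraries measured 2.07, 3.23, 12.9, 2.91 and 205 CPM. S9 was thus far above the others and S7 second, in both copies. In the male KO group Hspa1a measured 3.99 CPM in S10, 120 CPM in S11, 4.83 CPM in S12, 1.91 CPM in TKO5 and 3.38 CPM in TKO6. Hspa1b there measured 6.87, 171, 6.65, 2.24 and 3.46 CPM in the same order. S11 alone was high, and the male groups overlapped for both copies. The libraries S9 and S11 were singled out after these values were seen.

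The other cytosolic chaperones were also high in S9 and S11, but not all of them. In S9, Hspa1b was 50.6 times and Hspa1a 42.0 times the median of the other 4 male WT libraries, on the CPM + 1 scale, ranks 8 and 9 of 15187 genes. Hspb1 was 3.04 times that median (986 CPM), Hsp90aa1 2.53 times (314 CPM) and Hspa8 1.87 times (2294 CPM). Hsph1 (1.25 times), Dnajb1 (1.08 times), Hspe1 (0.904 times), Bag3 (0.792 times) and Hspd1 (0.647 times) were near or below it. In all, 4 of 10 members were at least 2-fold above the median of the other libraries of the group in S9, beside 3.35% of all genes.

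In S11, Hspa1b was 29.4 times and Hspa1a 25.9 times the median of the other 4 male KO libraries, ranks 6 and 7 of 15187. Hsp90aa1 was 5.39 times that median (567 CPM), Hspb1 4.03 times (1596 CPM), Hsph1 2.96 times (87.3 CPM), Hspa8 2.24 times (2480 CPM) and Hspe1 1.83 times (244 CPM). Hspd1 (1.04 times), Bag3 (1.03 times) and Dnajb1 (0.98 times) stayed at the level of the other libraries. Here 6 of 10 members were at least 2-fold above that median, beside 3.44% of all genes. Both libraries therefore combined high Hspa1a, Hspa1b, Hspa8, Hsp90aa1 and Hspb1 with a level of Dnajb1 and Bag3 inside the range of the other 18 libraries.

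Among further chaperone genes, Dnaja1, a J-domain partner of HSP70, measured 102 CPM in S9 and 190 CPM in S11 and 51.6 to 78.3 CPM in the other 18 libraries. Dnaja4, another J-domain gene, measured 75.4 CPM in S9 and 98.1 CPM in S11. Cryab, the lens and muscle small heat shock protein, measured 2147 CPM in S9 and 2945 CPM in S11. Not all genes of these families were high there. The J-domain genes Dnaja2 and Dnajb6 measured 223.7 and 59.7 CPM in S9 and 204.8 and 52.0 CPM in S11. Hspb6, another small heat shock protein, measured 466.5 CPM in S9 and 560.7 CPM in S11. All these values lay inside the ranges of the other 18 libraries. The transcript of Hsf1 itself, had its highest value of 35.9 CPM in S9 and 32.8 CPM in S11, in a narrow range from 27.2 CPM. Hsp90ab1, the constitutive HSP90 gene, measured 897 CPM in S9 and 1096 CPM in S11, and the mitochondrial HSP70 gene Hspa9 399.9 and 441.6 CPM. None of 8 TRiC subunits, 15 other mitochondrial chaperones and proteases or 14 endoplasmic reticulum chaperones was 2-fold above the median of the other libraries of its group in S9 or S11. In S7, the male WT library with the next-highest HSP70, Hspa1a was 4.34 times and Hspa1b 3.43 times the median of the other 4 libraries, and these 2 of 10 members were at least 2-fold above it, beside 6.27% of all genes. There 6 of 14 endoplasmic reticulum chaperones and 7 of 8 immediate early genes were at least 2-fold above it, led by Sdf2l1 (log2 difference 2.12) and Atf3 (2.67). Of the immediate early genes, Fosb (6.04 CPM) and Egr1 (44.7 CPM) also passed this mark in S9, and Atf3 (52.5 CPM) in S11.

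Atrial transcripts moved with inducible HSP70. The 7 libraries with the highest atrial sums, S7, S11, S9, S12, S10, S6 and S5, were also the 7 with the highest Hspa1b. Their atrial sums were 7768, 7666, 6283, 2270, 605, 375.9 and 270.2 CPM, and the other 13 libraries lay at or below 45.9 CPM. Hspa1b in the same 7 libraries was 12.9, 171, 205, 6.65, 6.87, 12.1 and 17.5 CPM, and at most 3.46 CPM in the other 13. The order within the 7 differed: S7 had the highest atrial sum with 12.9 CPM of Hspa1b, while S5 had the lowest with 17.5 CPM. Red blood cell genes were also high in S11 (a summed 1782 CPM, beside 156 to 1782 CPM over the male KO group), and in S9 all 5 adipocyte genes were at least 2-fold above the median of the other male WT libraries (sum 47.7 CPM, far below the 1330 CPM of S7). Their part in the chaperone levels was not tested.

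**Figure D2:**
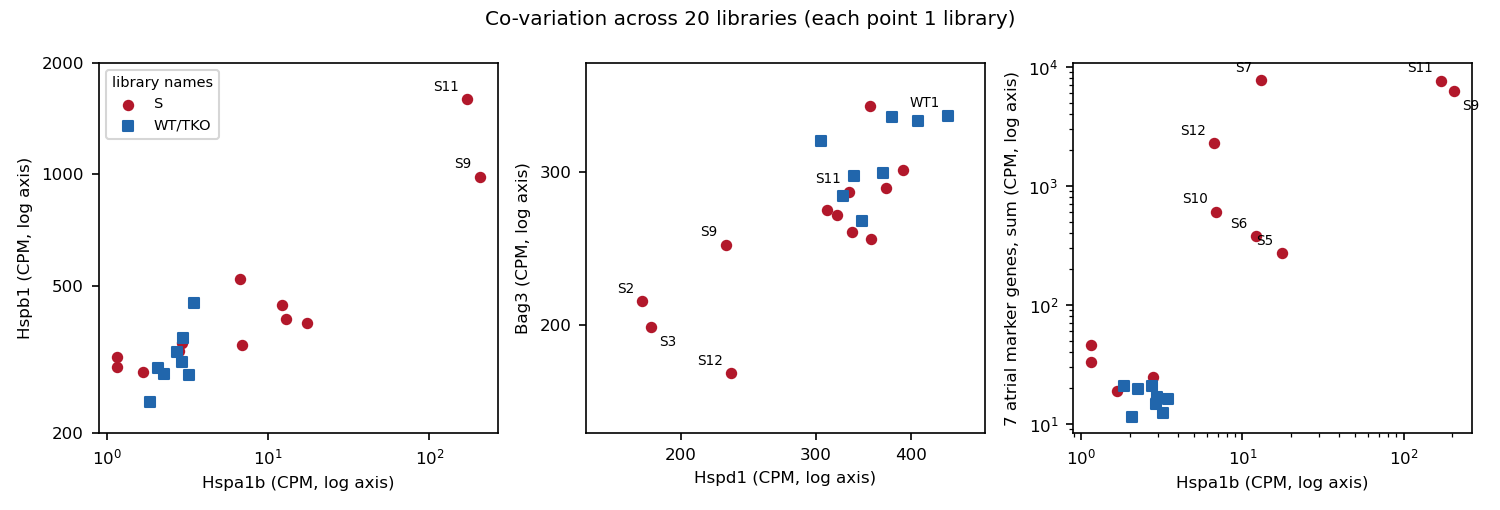
Hspb1 against Hspa1b, Bag3 against Hspd1, and the summed level of 7 atrial marker genes against Hspa1b (all CPM, log axes; circles S, squares WT/TKO libraries; 1 point per library). S9 and S11 lie apart for Hspa1b and Hspb1, S2, S3, S9 and S12 are lowest for Hspd1, and the 7 libraries with an atrial sum of 270 CPM or more have Hspa1b of 6.65 CPM or more.

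The first comparison asked whether the chaperones differ between KO and WT hearts labelled male (5 libraries each, library series as covariate, edgeR quasi-likelihood test with Benjamini-Hochberg adjustment). No member passed an adjusted p of 0.05, and 0.0% of 14481 genes did, beside 688 genes at an unadjusted p under 0.05 and 13 called by DESeq2. By the thresholds of the study (p under 0.05 before adjustment, with a log2 fold change of 0.58 or more in either direction) 0 of 10 members and 2.09% of all genes were called. The log2 fold changes of Hspa1a and Hspa1b were -0.20 ± 1.09 and -0.17 ± 1.12 (SE). The male groups overlapped for all 10 members, where 0.652% of genes did not overlap. Of the other members, Hspb1 had the largest value at 0.42 ± 0.41, and Dnajb1 had -0.19 ± 0.13. The median was -0.10 over the members and -0.01 over all genes.

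The male values rested on which of the high libraries was present. Without S11 the log2 fold change of Hspa1a was -2.13 and that of Hspa1b -2.09, and without S9 they were 1.58 and 1.91. Without both, Hspa1a stood at -0.40 ± 0.50, Hspa1b at -0.07 ± 0.42, Hsph1 at -0.30 ± 0.14 and Hsp90aa1 at -0.45 ± 0.25, with 0 members and 0.0% of 14096 genes at an adjusted p under 0.05. Within the S libraries alone (3 and 3) the 2 copies gave -0.36 and -0.28. Between genotypes all 10 members overlapped both within these S libraries, where 9.65% of genes did not, and within WT1, WT2, TKO5 and TKO6, where 26.5% did not.

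In libraries labelled female, where all WT libraries belong to the S series, the fit compares KO with WT through S1 to S3 and S4 to S6. Inducible HSP70 showed the largest differences of the members. Hspa1a measured 2.78, 0.893 and 1.72 CPM in the WT libraries S1, S2 and S3. In the KO libraries it measured 2.87, 10.9 and 14.2 CPM in S4, S5 and S6, and 1.25, 2.59, 3.66 and 3.09 CPM in TKO1 to TKO4. Only S5 and S6 stood clear of the WT libraries by a wide margin. Hspa1b measured 2.78, 1.15 and 1.15 CPM in WT, 1.66, 17.5 and 12.1 CPM in S4 to S6, and 1.84, 2.73, 2.91 and 2.97 CPM in TKO1 to TKO4. The KO and WT libraries overlapped for both copies.

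The fitted log2 fold changes were 2.34 ± 0.54 (SE, adjusted p = 0.130) for Hspa1a and 2.57 ± 0.62 (adjusted p = 0.140) for Hspa1b, by edgeR. Neither passed, nor did any other member, where 0.0551% of 14511 genes did. By the thresholds of the study these 2 members were called, beside 9.99% of all genes and 2.85% in the higher direction. DESeq2 called both copies at adjusted p of 0.00252 and 0.0318, among 383 genes (2.64%). S5 and S6 had atrial sums of 270.2 and 375.9 CPM and S4 one of 19.0 CPM, beside 24.9 to 45.9 CPM in the WT libraries.

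Hsph1, the HSP110 exchange factor, separated the groups labelled female. It measured 27.1, 17.8 and 22.3 CPM in S1, S2 and S3. In the 7 KO libraries it ranged from 28.8 to 49.5 CPM with a median of 32.8 CPM. Every KO library was above every WT library, beside 4.71% of all genes that did not overlap in either direction. Within S libraries this held for Hsph1 and Hspa1a, beside 16.6% of genes. The log2 fold change of Hsph1 was 0.55 ± 0.21 (edgeR, adjusted p = 0.219). The mitochondrial chaperonin Hspd1 measured 371 CPM in S1 but 178 and 182.6 CPM in S2 and S3, against 310.2 to 408 CPM in KO, with a log2 fold change of 0.48 ± 0.23. S1 thus lay with the KO libraries and S2 and S3 below them. Bag3 had the same order, with 287.5 CPM in S1, 212.8 and 198.7 CPM in S2 and S3 and 263 to 347 CPM in KO. With 1 library left out, the log2 fold change of Hspd1 ran from 0.30 without S2 to 0.89 without S1.

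S1 was the highest of the 3 WT libraries for all 10 members, as for 38.8% of all genes. Without S1, 5 members and 2409 genes (16.8%) passed an adjusted p of 0.05, so that the female result depends on this library. Hspa8 had a log2 fold change of -0.001 ± 0.131, and its sign turned under several alternatives. Dnajb1 had -0.07 ± 0.17. The median over the 10 members was 0.30, beside -0.02 over all genes, and 8 of 10 were above 0. This median was 0.52 without S1, 0.19 without S3 and 0.49 in 1 fit of all 20 libraries.

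**Figure D3:**
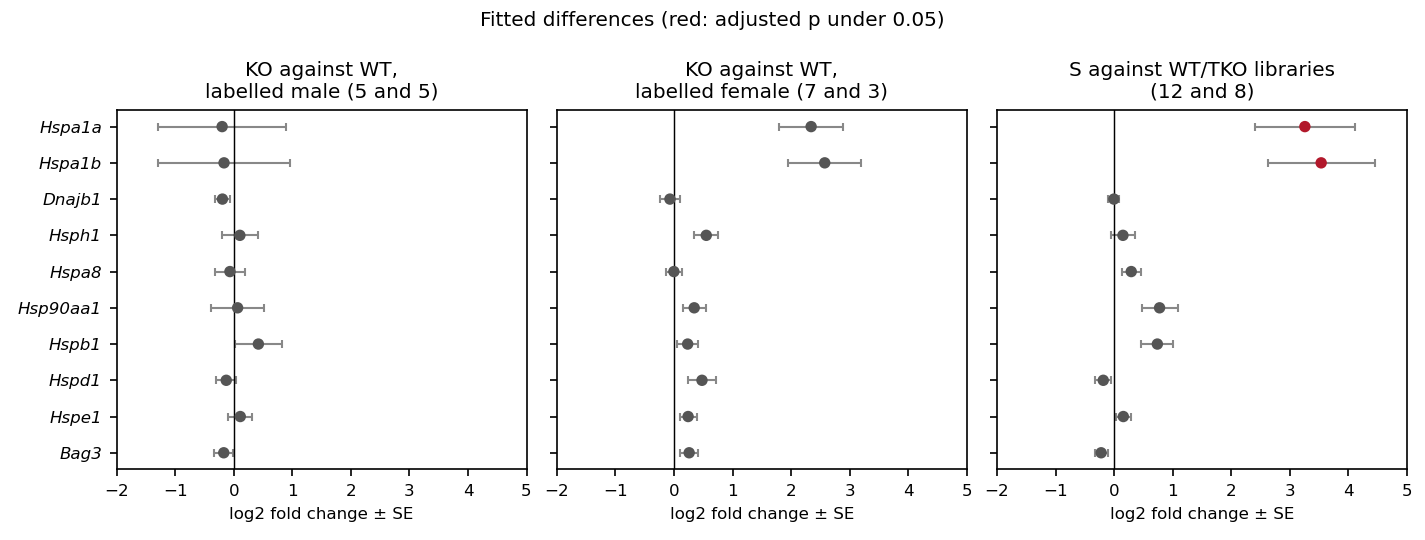
Log2 fold change with SE of each member from the edgeR fits of KO against WT in libraries labelled male and female, and of S against WT/TKO libraries. Red points have an adjusted p under 0.05, which holds for Hspa1a and Hspa1b in the comparison of library series.

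In a fit of all 20 libraries, the difference between the genotype effects of libraries labelled male and female was below 0 for all 10 members, with a median of -0.47, beside -0.004 over all genes. None passed an adjusted p of 0.05 by edgeR, and 0.0% of 15187 genes did, beside 2375 genes at an unadjusted p under 0.05 and 20 called by DESeq2. Hspa1a had -3.39 ± 1.58 and Hspa1b -3.61 ± 1.68 (both adjusted p = 0.309), and these 2 were past the thresholds of the study, beside 11.3% of all genes and 4.54% in the lower direction. With 1 library left out, 0 to 4 members were past those thresholds, and Hspa1a ran from -4.98 without S11 to -0.995 without S9. In S libraries only, 0 members were past them, 2 of 10 members were above 0 and the median was -0.26. Without the series term 3 members were above 0 and the median was -0.30. Without S9 and S11 the values were -2.60 ± 0.76 and -2.50 ± 0.79, and 5 members were past the thresholds of the study, beside 14.4% of 15002 genes. Without S1, 1 member and 1127 genes (7.45%) passed the adjusted p. In the S series both labelled sexes set KO libraries with Y-linked transcripts against WT libraries with Xist, so this value is a difference between labels and not between sexes. The fit shares its control libraries with both comparisons above.

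The next comparison set the 12 S libraries against the 8 WT/TKO libraries. Over the 8 WT/TKO libraries Hspa1a had a lowest value of 1.25 CPM, a median of 2.46 CPM and a highest of 3.66 CPM. Over the 12 S libraries the lowest was 0.893 CPM, the median 4.41 CPM and the highest 147 CPM. Hspa1b ran from 1.84 to 3.46 CPM with a median of 2.82 CPM in WT/TKO, and from 1.15 to 205 CPM with a median of 6.76 CPM in S. The series overlapped for all 10 members, where 1.01% of genes did not overlap. For inducible HSP70 several S libraries lay inside or below the WT/TKO range, among them S1, S2, S3, S4 and S8 for both copies, and S2 was the lowest of all 20 for both copies.

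With group as covariate, S libraries were higher by a log2 fold change of 3.26 ± 0.86 (SE) for Hspa1a (adjusted p = 0.0154) and of 3.53 ± 0.91 for Hspa1b (adjusted p = 0.0139), by edgeR. These 2 of 10 members rose, where 14.7% of 15187 genes were called and 8.16% were called in that direction. Without S9 and S11 the rise was 1.56 ± 0.38 and 1.68 ± 0.38, with adjusted p of 0.0163 and 0.0124, and 9.39% of 15002 genes were called. With limma on log2(FPKM + 1) neither copy passed (adjusted p = 0.0648 and 0.0649). Hsp90aa1 (0.78 ± 0.31, adjusted p = 0.0933) and Hspb1 (0.74 ± 0.27, adjusted p = 0.0745) were past the thresholds of the study, as were 13.0% of all genes and 8.22% in that direction, and stood at 0.30 and 0.28 without S9 and S11. Bag3 (-0.22 ± 0.11) and Hspd1 (-0.19 ± 0.14) were the lowest values. In the same fit all 7 atrial genes, all 5 adipocyte genes and 4 of 5 macrophage genes were called higher in S libraries, and their part in the HSP70 result was not tested.

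Within groups the copies did not all separate the series. In male KO libraries all 3 S libraries were above both WT/TKO libraries for Hspa1a and Hspa1b and below them for Bag3, as for 34.3% of all genes in either direction. In male WT this held for Hspa1a, Hsph1 and Hspb1 upward and Hspe1 downward, where 29.7% of genes did not overlap, while Hspa1b overlapped. In female KO no member separated the series, beside 22.0% of genes. In male WT and in female KO the S libraries also differed from the WT/TKO libraries in Xist and Y-linked transcripts, so series and sex-linked expression cannot be told apart there, while all 5 male KO libraries carried Y-linked transcripts. Over the KO libraries alone Hspa1a had 2.67 (adjusted p = 0.0558) and Hspa1b 2.96 (adjusted p = 0.0461), and 1 of 10 members was called, beside 11.2% of 14540 genes.

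**Figure D4:**
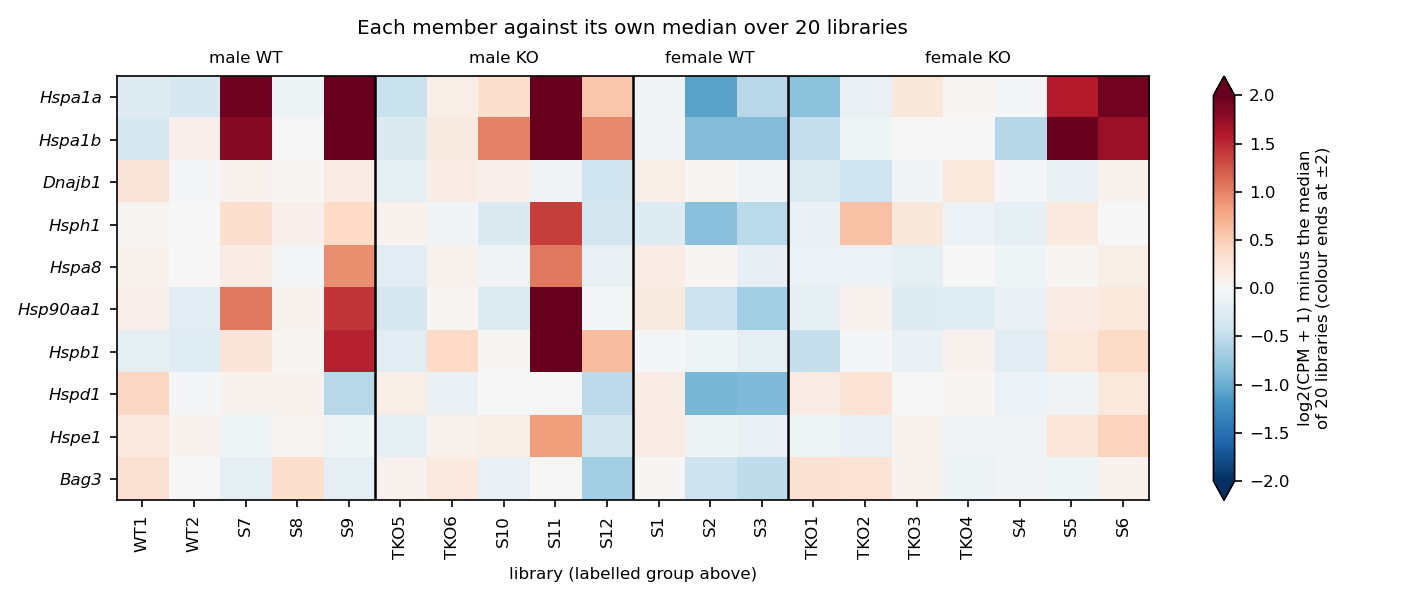
Log2(CPM + 1) of each member minus its own median over 20 libraries, with libraries ordered by labelled group and colour ending at ±2. S9 and S11 are dark for Hspa1a, Hspa1b, Hsp90aa1 and Hspb1, S2 and S3 are pale blue for Hsph1, Hspd1 and Bag3, and the Dnajb1 line is nearly white.

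The members did not vary as 1 block. Over 20 libraries 18 of 45 pairs had a Pearson r of log2(CPM + 1) with an adjusted p under 0.05 (permutation test, 100000 resamples, Benjamini-Hochberg over 45 pairs), all positive, and 12 pairs by Spearman's rho. Since S9 and S11 lie apart, values over the other 18 libraries are given here, where 12 pairs passed by r and 6 by rho. What share of pairs of other genes would pass was not computed. Hspa1a and Hspa1b had r = 0.94 and rho = 0.87 (adjusted permutation p = 0.00045 and 0.0018), with the shared stretches of sequence noted above. How reads from those stretches were counted was not examined. The share of Hspa1b in the counts of both copies was 58.3% in S9 and 58.8% in S11 and 36.6 to 63.3% over all libraries.

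Inducible HSP70 went with Hsp90aa1 and Hspb1. Hspa1b and Hspb1 had r = 0.68 and rho = 0.71 over 18 libraries (adjusted permutation p = 0.0143 and 0.0164), beside r = 0.92 with S9 and S11. Hspa1a and Hsp90aa1 had r = 0.72 and rho = 0.56 (adjusted permutation p = 0.00338 and 0.0801), beside 0.91 with both. The pair Hspa1b and Hspa8 rested on S9 and S11, with r = 0.89 over 20 and 0.39 over 18 libraries.

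Hspd1 and Bag3 went together, with r = 0.81 over 20 libraries and r = 0.82 and rho = 0.69 over 18 (adjusted permutation p = 0.00338 and 0.0166). Both were low in S2, S3 and S12. By r with Hspd1 over 20 libraries, Bag3 ranked only 328 and Hsph1 2690 among the tested genes. Many genes outside the members thus followed Hspd1 more closely. Hsph1 followed Hspd1 with r = 0.76 and rho = 0.56 over 18 libraries, and with r = 0.45 when S9 and S11 were included. Hspd1 and Hspe1, which share a promoter region and encode both parts of 1 folding chamber, had only r = 0.35 over 20 and 0.45 over 18 libraries. Dnajb1 went with Hspa8 (r = 0.65, rho = 0.73, adjusted permutation p = 0.0188 and 0.0114) and Hspe1 (r = 0.58, rho = 0.59) over 18 libraries, but with neither over 20 (r = 0.32 for both).

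Within each library series fewer libraries stood behind each pair, and whether the relations differ between series was not tested. Over the 12 S libraries 17 pairs passed, and over the 10 without S9 and S11 6 pairs. Over the 8 WT/TKO libraries 0 of 45 pairs passed by the exact permutation test, where Hspa1a and Hspa1b had r = 0.77 and Hspd1 and Bag3 r = 0.58. When the 2 libraries farthest from the median of the first member were left out of each pair, 8 pairs passed.

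**Figure D5:**
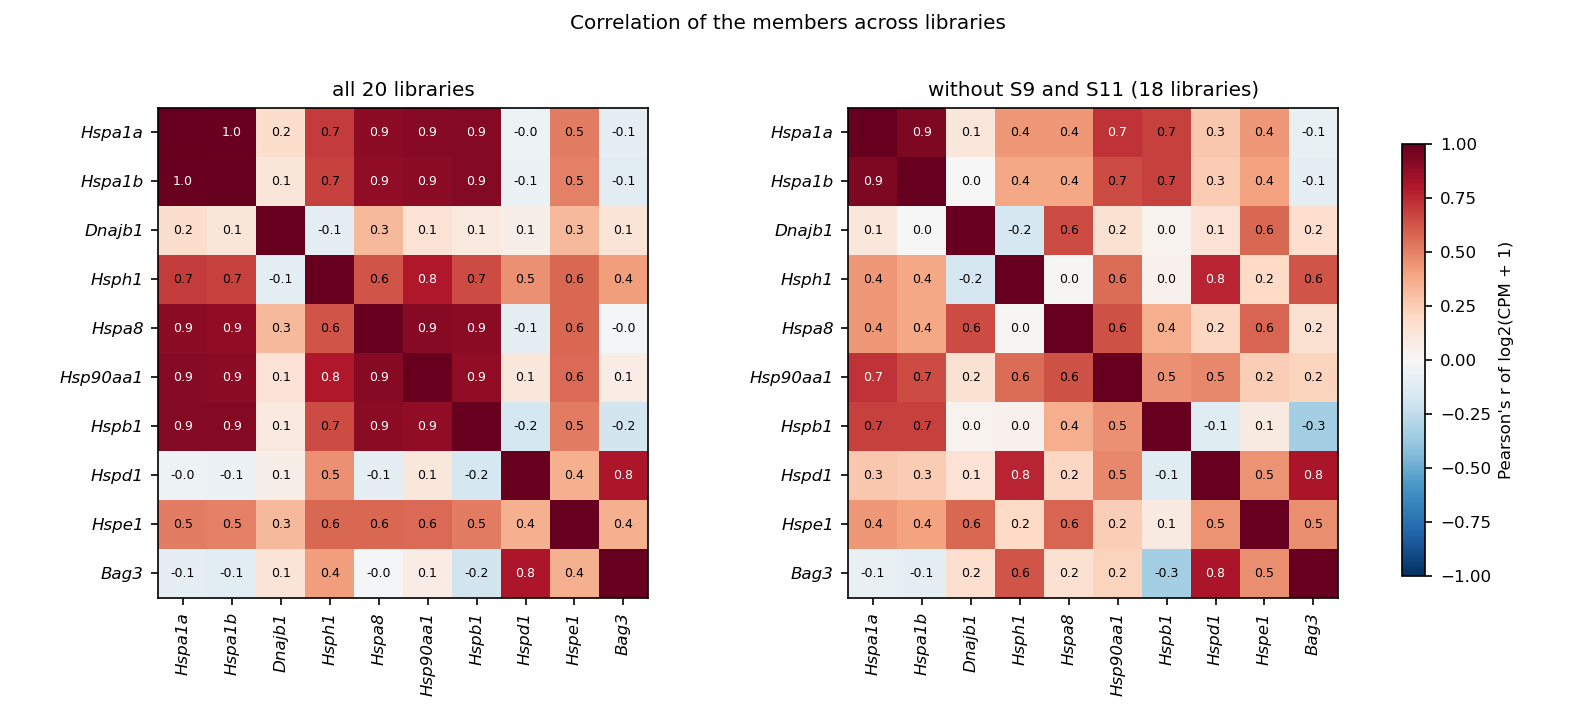
Pearson's r of log2(CPM + 1) for each pair of members over 20 libraries (left) and over 18 without S9 and S11 (right). The block of Hspa1a, Hspa1b, Hspa8, Hsp90aa1 and Hspb1 pales on the right, while the pair Hspd1 and Bag3 stays at 0.8 in both.

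Dnajb1, the most even member, was compared with 8 other measures: Cirbp and Rbm3 (cold-inducible RNA-binding proteins), Fos, Per1, Nr1d1, Nppa, the mitochondrial share of counts and the total count. None passed an adjusted p of 0.05 over 20 libraries. The strongest was Rbm3 with r = 0.51 and rho = 0.42 (permutation p = 0.0235 and 0.0682, adjusted 0.188 and 0.282). Within the 8 WT/TKO libraries Nppa had r = -0.92 and rho = -0.93 (exact permutation, adjusted p = 0.0210 and 0.0179), beside r = -0.08 over all 20. Among the genes nearest to Dnajb1 by r over 20 libraries were Zfp146 (0.73), Picalm (0.73), Pak1 (0.71) and Rnd3 (0.70). Those nearest to Hspd1 were Tomm40l (0.94), Gart (0.93), Cops7a (0.92), Tmod1 (0.92) and Snx12 (0.92), and Hspa9, the matrix HSP70, was the tenth-nearest with 0.91. These are descriptions across libraries that share depth and composition, with no p.

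The lists of the wider chaperone network are set beside all genes in the comparison of library series, of which 14.7% were called and 8.16% were called higher. In that comparison 2 of 8 small heat shock proteins rose, Hspb2 (0.78 ± 0.15, adjusted p = 0.00261) and Hspb8 (0.44 ± 0.13, adjusted p = 0.0327), with a list median of 0.22 beside 0.00 over all genes. Of 14 endoplasmic reticulum chaperones 1 rose, the secreted factor Manf (0.60 ± 0.16, adjusted p = 0.0153). Of 15 other mitochondrial chaperones and proteases 1 fell, the inner membrane protease Yme1l1 (-0.21 ± 0.06, adjusted p = 0.0313). Of 19 further genes that heat shock induces 1 rose, Tnfaip3, an inhibitor of NF-kappaB signalling (0.57 ± 0.14, adjusted p = 0.00931). Rbm3 (0.39 ± 0.12, adjusted p = 0.0275) rose as 1 of 2 cold-inducible genes. Of 14 clock genes Nr1d1 (1.08 ± 0.22, adjusted p = 0.00379) and Dbp (0.48 ± 0.15, adjusted p = 0.0416) rose while Cry1 (-0.38 ± 0.10, adjusted p = 0.0132) and Clock (-0.36 ± 0.09, adjusted p = 0.0133) fell.

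No gene was called in the other lists in that comparison: 5 HSF genes and regulators, 8 other HSP70 and HSP110 genes, 12 J-domain genes, 13 HSP90 genes and co-chaperones, 9 other HSP70 co-chaperones, 8 TRiC subunits and 8 immediate early genes. Hsf1 had 0.16 ± 0.06 with an adjusted p of 0.104. By genotype no gene of these lists passed an adjusted p of 0.05 in either labelled sex by edgeR. In libraries labelled female all 15 other mitochondrial chaperones and proteases had a log2 fold change above 0, with a median of 0.34 beside -0.02 over all genes, and Grpel1 (0.54 ± 0.18) and Dnaja3 (0.61 ± 0.22), the exchange factor and J-domain partner of Hspa9, had the lowest p. In libraries labelled male 6 of these 15 were above 0, with a median of -0.10. In the female WT libraries S1, S2 and S3, Grpel1 measured 127, 73.5 and 74.0 CPM, against 95.3 to 145 CPM in KO. Dnaja3 measured 139, 72.6 and 67.1 CPM there, against 117 to 157 CPM in KO. Hspa9 measured 748, 376.5 and 341.4 CPM, against 584 to 872 CPM in KO. For these genes S1 thus lay with the KO libraries, and the difference rested on S2 and S3. Among cytosolic J-domain genes Dnajb4 had the lowest p in libraries labelled female (0.81 ± 0.23, adjusted p = 0.154), and of the further heat-induced genes Hspa4l followed it (0.58 ± 0.18, adjusted p = 0.161).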

How the data were processed

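Poly(A) RNA of mouse hearts was sequenced as 20 libraries with 150-base paired-end reads. The study's text describes fewer mice than there are libraries. The authors deposited whole-number read counts per Ensembl gene, not normalized, and the FPKM they made from them. The submitters' processing notes name HISAT2, HTSeq 0.6.1p2, DESeq2 1.26.0 and GRCm38, with no annotation release. Each FPKM value matches, within 1 percent, the deposited count over the library total and 1 length per gene, and for all 10 members this length is, within 1 percent, the exonic length in GENCODE M21. No value column was left unmapped to a sample.

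Counts were scaled by TMM to CPM. Genes were kept if 3 or more libraries of the fit had 10 or more counts, and tested by edgeR 4.0.16 (quasi-likelihood, limma 3.58.1, R 4.3.3), with library series as covariate for genotype and labelled group for series. Genes were called at a Benjamini-Hochberg adjusted p under 0.05, or at the thresholds of the study. The study's methods describe libraries made from each mouse. Fits were tested on simulated data with known changes. Correlations used log2(CPM + 1) (Python 3.11.15, scipy 1.17.1, matplotlib 3.10.9).

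The members and gene lists were chosen with earlier results of these data known. Named genes are the members, list genes called or, failing that, with the lowest p, and the 5 genes nearest to Dnajb1 and to Hspd1. Of these neighbours, 1 is not reported here. Dnaja1, Dnaja2, Dnaja4, Dnajb6, Cryab, Hspb6, Hsp90ab1, Hspa9, Sdf2l1, Fosb, Egr1 and Atf3 were singled out with their values in view. The alternatives tried were DESeq2 1.42.0, other normalizations and filters, limma on log2(FPKM + 1), other covariates and each library left out. The counts of 12540002 to 20038593 reads per library bound the precision of low values: 0.893 CPM of Hspa1a in S2 is 14 counts.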

Additional observations from a re-analysis of the deposited data

Results flagged for a closer look

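Among 30 combinations of a member and a labelled group of 4 to 10 libraries, 7 held a library whose gap to its nearest neighbour, as a share of the range of log2(CPM + 1), was above the 95% critical value of Dixon's test. Chance flags about 1 in 20 groups. The members share their libraries, so the 7 are not separate events. In the male KO library S11 they were Hspa1a at 120 CPM (next library 4.83 CPM), Hspa1b at 171 CPM (6.87 CPM), Hsph1 at 87.3 CPM (34.4 CPM), Hspa8 at 2480 CPM (1280 CPM) and Hsp90aa1 at 567 CPM (119 CPM). In the male WT library S9 they were Hspa8 at 2294 CPM (1330 CPM) and Hspb1 at 986 CPM (406 CPM). Hspa1a and Hspa1b of S9 were not among them, since S7 lay between S9 and the other 3 libraries. S9 and S11 carried atrial sums of 6283 and 7666 CPM, and S7, which was not among the 7, carried 7768 CPM. The part of atrial tissue in these values was not tested.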

How the results depend on the processing

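The numbers of genes called moved most. For KO against WT labelled male 0 became 13 with DESeq2, 59 without a filter and 5 in S libraries only, and 0 to 1 with 1 library left out. For female, 8 became 383 with DESeq2, 1110 without a filter, 0 with at least 10 counts in every library, 2 without the series term, 2 in 1 fit of all 20 libraries, 15 with Y-linked level as covariate, and 1 to 2409 with 1 library left out. For genotype by sex 0 became 20 with DESeq2, 129 without a filter and 0 to 1127 with 1 library left out. For library series 2231 became 1409 without S9 and S11 and 1568 to 2603 with 1 library left out. Members called went from 0 to 2 (DESeq2), 3 (no filter) and 0 to 5 (1 library left out) in female, stayed 0 in male with any library left out, reached 0 to 1 for genotype by sex, and for series went from 2 to 4 without a filter, 0 with limma on log2(FPKM + 1), 1 in KO libraries only and 2 to 3 with 1 library left out. Pairs of members that passed numbered 0 within WT/TKO, 6 within S without S9 and S11 and 8 without the farthest 2 libraries, against 18. For Dnajb1 1 measure passed on log2(FPKM + 1) (Rbm3) and 1 within WT/TKO (Nppa), against 0.

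Genes past the thresholds of the study went from 303 to 852 without a filter, 183 with at least 10 counts in every library and 52 with limma in male, and from 1450 to 2239 without a filter and 526 with limma in female. For genotype by sex 1720 became 2814 without a filter and 887 with limma, and for series 1981 became 3657, 921 and 616 in the same order as in male. With 1 library left out they ran from 205 to 484 (male), 640 to 2954 (female), 760 to 3068 (genotype by sex) and 1760 to 2095 (series).

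Directions that turned belong to log2 fold changes that had not passed. In male with Y-linked level as covariate Hspa1a had 0.86, Hspa1b 0.91 and Hspa8 0.046. With limma Hsph1 had -0.025 and Hsp90aa1 -0.16, and without S9 and S11 Hsph1 had -0.30, Hsp90aa1 -0.45 and Hspe1 -0.13. With 1 library left out the male values ran from -2.13 to 1.58 (Hspa1a), -2.09 to 1.91 (Hspa1b), -0.36 to 0.27 (Hsph1), -0.33 to 0.15 (Hspa8), -0.65 to 0.27 (Hsp90aa1), -0.078 to 0.77 (Hspb1) and -0.12 to 0.23 (Hspe1). Each lower end was without S11, and the upper ends of Hspa1a, Hspa1b, Hspa8 and Hspb1 were without S9. In female Hspa8 had 0.0014 with DESeq2, 0.0064 without a filter, 0.018 with upper-quartile scaling, 0.0015 with DESeq2 size factors, 0.0298 with limma, 0.11 in 1 fit of all 20 libraries, 0.19 with Y-linked level as covariate and -0.079 to 0.054 with 1 library left out. For series Dnajb1 had 0.00042 with at least 10 counts in every library, 0.0306 with upper-quartile scaling, 0.10 with limma and -0.043 to 0.041 with 1 library left out, and Hsph1 had -0.12 without S9 and S11 and -0.084 to 0.23 with 1 left out. The r of Dnajb1 with Nppa was 0.26 on log2(FPKM + 1), and that of Hspd1 with Hspe1 was -0.066 within WT/TKO. The cause of these changes was not tested.

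No paired analysis was possible because the numbers in the library names run on across the groups and mark no shared animal, litter or day. At 14 to 74 counts of Hspa1a in 15 libraries, small differences of its resting level were not detectable. The setting without S9 and S11 was chosen after seeing the data.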
